A study of Mus musculus with 9 samples.

Results

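The genes described here encode 9 small proline-rich proteins (Sprr1a, Sprr1b, Sprr2a1, Sprr2b, Sprr2d, Sprr2e, Sprr2h, Sprr3 and Sprr4) and involucrin (Ivl), measured in mouse tracheal epithelium growing in culture. The 10 genes were chosen by name from the 56748 genes of the deposited table, and all 10 have a row there. The cells were wild-type (WT) primary airway basal stem cells, the progenitors at the base of the tracheal lining, kept at an air-liquid interface (ALI), where the upper surface meets air and medium lies below. RNA was sequenced on day 1, day 3 and day 5 of ALI culture with 3 libraries a day. The submitters link these days to proliferating basal cells, to stratification and to the specification of luminal cells. All libraries shared the genotype and the culture, with no treated or mutant arm, and the labels give neither age nor sex of the animals. Whether the 3 replicates of a day were separate cultures or animals is not stated, so each p-value reflects the spread among the libraries at hand, which may be technical.

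Small proline-rich proteins and involucrin are building blocks of the cornified envelope, a layer of cross-linked protein that forms under the membrane of a squamous epithelial cell. Transglutaminases tie glutamine and lysine residues of these proteins together; involucrin is laid down early as a scaffold, and the small proline-rich proteins act as flexible bridges in it. In the airway lining these genes are known from squamous change, in which the epithelium takes on features of skin or oesophagus, and from the layers above the basal cells. All 10 genes lie in the epidermal differentiation complex on mouse chromosome 3.

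The stretches just upstream of the genes are shown because the members differ in when their RNA fell while sharing short motifs there. The 150 bases before the start site are given 5′ to 3′ from RefSeq on GRCm38.p6, an older build than the GRCm39 of the alignment, and capitals mark the motifs searched for.
Sprr1a (chr3:92485882-92486031, minus strand): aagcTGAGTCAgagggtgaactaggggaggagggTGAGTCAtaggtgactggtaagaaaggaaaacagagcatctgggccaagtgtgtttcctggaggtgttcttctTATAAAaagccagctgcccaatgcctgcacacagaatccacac
Sprr1b (chr3:92438780-92438929, minus strand): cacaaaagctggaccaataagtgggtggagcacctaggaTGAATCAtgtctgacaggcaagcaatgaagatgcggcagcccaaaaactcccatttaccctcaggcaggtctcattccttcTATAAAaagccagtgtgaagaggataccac
Sprr3 (chr3:92458721-92458870, minus strand): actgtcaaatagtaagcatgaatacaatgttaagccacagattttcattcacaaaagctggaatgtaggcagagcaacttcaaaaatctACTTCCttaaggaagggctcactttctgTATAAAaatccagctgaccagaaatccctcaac
Sprr2b (chr3:92316555-92316704, plus strand): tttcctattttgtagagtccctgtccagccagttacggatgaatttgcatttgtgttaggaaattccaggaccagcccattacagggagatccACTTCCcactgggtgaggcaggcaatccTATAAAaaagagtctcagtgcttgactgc
Sprr2d (chr3:92338990-92339139, plus strand): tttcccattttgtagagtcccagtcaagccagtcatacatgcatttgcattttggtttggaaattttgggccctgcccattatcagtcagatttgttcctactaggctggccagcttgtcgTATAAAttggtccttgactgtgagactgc
Sprr2h (chr3:92385535-92385684, plus strand): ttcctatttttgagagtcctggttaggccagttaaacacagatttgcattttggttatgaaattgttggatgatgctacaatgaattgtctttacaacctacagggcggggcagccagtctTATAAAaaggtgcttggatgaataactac
Ivl (chr3:92573736-92573885, minus strand): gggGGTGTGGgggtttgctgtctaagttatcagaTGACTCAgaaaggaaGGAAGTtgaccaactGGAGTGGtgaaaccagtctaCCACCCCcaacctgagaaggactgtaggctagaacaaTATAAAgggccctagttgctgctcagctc
The search covered 250 bases before each start, and a distance counts from the start site to the first base of the match. The AP-1 motif TGANTCA, read on both strands, was in the windows of 7 of the 10 genes and in 6.75% of 32817 promoters. It began 146 and 116 bases before the start of Sprr1a, 111 before Sprr1b and 116 before Ivl, and between 193 and 198 bases before Sprr2b, Sprr2d, Sprr2e and Sprr2h, outside the stretch printed. The TATA motif TATAAA, read on the gene's strand only, was in 8 of the 10 windows and in 7.60% of all promoters. It began 43 bases before the start of Sprr1a, 30 before Sprr1b, 33 before Sprr3 and 29 before Sprr2b, Sprr2d, Sprr2e, Sprr2h and Ivl. The ETS motif GGAAGT, on both strands, was in 3 windows, those of Sprr2b, Sprr3 and Ivl, against 19.7% of all promoters. The KLF motif GGNGTGG, on both strands, was in 2, with 3 matches before Ivl and 1 before Sprr3, against 29.2% of all promoters. No match overlapped another. The windows of Sprr2a1 and Sprr4 held none of the 4 motifs in these letters and are not shown; that of Sprr2e was 89.6% identical to that of Sprr2d, and that of Sprr2a1 was 100% identical to that of its copy Sprr2a2. These matches describe the sequence and do not show that a factor binds there.

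Depth ran from 16.4 to 35.1 M reads a library and averaged 30.8 ± 4.29, 21.9 ± 2.55 and 17.6 ± 1.51 M reads over days 1, 3 and 5 (SD, n = 3 each). Levels below are normalized counts, that is, read counts divided by the authors' size factor for the library, and means carry the SD over the 3 libraries of a day. Tests are on log2(normalized count + 1) in a limma fit across the 17338 genes that reached 10 normalized counts in 3 or more libraries, and on this scale changes of sparsely read genes come out too small. Adjusted p-values use the Benjamini-Hochberg method over all those genes, with a threshold of 0.05. The basal cell markers Krt5, Krt14 and Trp63 together stood at 143905 to 164439, 91619 to 95979 and 44589 to 60524 normalized counts on days 1, 3 and 5. Of the 6 fibroblast markers, summed, the libraries held 4.07 to 14.9, 4.02 to 8.88 and 103 to 130 normalized counts on days 1, 3 and 5. The day 5 sum was nearly all decorin (Dcn), with 0, 0 and 112 ± 16.1, while Col1a1 averaged 2.21, 2.71 and 0.661. The 5 leukocyte markers summed to at most 17.2 in any library and the 5 endothelial and muscle markers to at most 28.7. The female-expressed Xist averaged 1825, 5998 and 7373 normalized counts on days 1, 3 and 5, and the sum of 4 Y-linked genes 3137, 324 and 461. All these move with the day, and so does depth. Whether the days share animals is not stated, so a change between days cannot be told apart from a change of animals. The part of any of these in the results was not tested. In bulk RNA, fewer cells of a type cannot be told apart from less of its RNA per cell.

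Among the 10 genes, Sprr2a1 and Sprr1a had the most normalized counts on day 1, and on day 5 little of either was left. The 10 genes together made up 0.164%, 0.149% and 0.00521% of all counts on days 1, 3 and 5. Of this sum Sprr2a1 took 65.3% ± 5.24 on day 1, 90.1% ± 3.61 on day 3 and 91.6% ± 3.68 on day 5 (SD, n = 3). Without Sprr2a1 the other 9 summed to 12072 ± 1074, 3609 ± 788 and 80.7 ± 14.5 normalized counts on the 3 days. Per kilobase of exon, the scale on which genes can be set side by side, Sprr1a had 12633 normalized counts per kb on day 1 and 3334 on day 3, and Sprr2a1 had 7628 and 11551. Their order rests on how reads were assigned among the near-identical Sprr2a genes, of which Sprr2a2 had 12525 per kb on day 1 and 15546 on day 3. It also rests on the annotated exon length, 3003 bases for Sprr2a1 and 806 for Sprr1a. Sprr3 with 653, Ivl with 326, Sprr2b with 315 and Sprr1b with 204 per kb stood an order lower on day 1. Of the 10 genes 7 passed the filter on low counts and were tested, and Sprr2d, Sprr2e and Sprr4 were not. Sprr1b and Sprr2h passed through day 1 alone, and Sprr2b and Sprr3 through days 1 and 3, so these had to be lower elsewhere and no weight rests on how many of the tested genes fell.

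**Figure D1:**
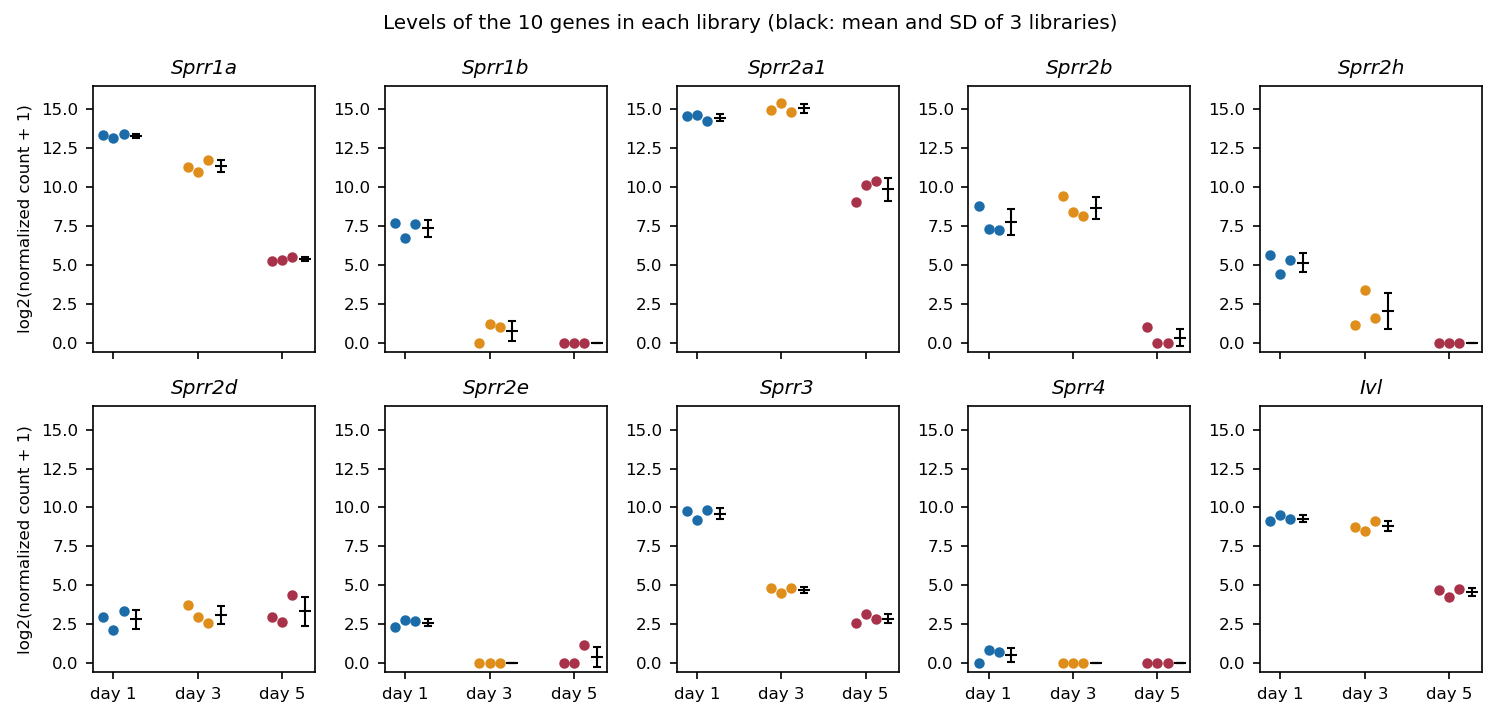
Levels of the 10 genes on a log2(normalized count + 1) axis, 1 panel a gene, with 1 point for each of the 3 libraries of days 1, 3 and 5 and the mean and SD in black beside them. Sprr1a steps down at each day, Sprr2a1 and Sprr2b drop only by day 5, Sprr1b and Sprr3 are already low on day 3, and Sprr2d stays near the bottom throughout.

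On day 3 against day 1, 5 of the 7 tested genes fell and 0 rose, where 73.0% of all tested genes were called, 37.0% lower and 36.1% higher. On day 5 against day 3, 6 of the 7 fell and 0 rose, where 67.3% of all tested genes were called, 32.4% lower and 34.8% higher. On day 5 against day 1 all 7 tested genes fell, where 74.5% were called, 37.7% lower and 36.7% higher. Scaled to equal total counts instead, the second step had 8154 genes called higher and 3883 lower, against 6040 and 5624 as reported, and the median of all genes moved to −0.24 for day 3 against day 1 and to 0.38 for day 5 against day 3. The calls of the 7 genes were the same under that scaling.

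Sprr1a, a family member of stratified epithelia that is known to be induced by injury in several tissues, fell at both steps. It had 10262, 9270 and 11014 normalized counts in the libraries of day 1, 2564, 2035 and 3463 on day 3, and 37.7, 38.7 and 44.3 on day 5. The 3 days did not overlap, and the day 5 libraries lay close together. The mean on day 3 was 3.79-fold lower than on day 1 (log2 change −1.95 ± 0.17, SE; adjusted p = 3.6e-06). On day 5 it was 66.8-fold lower than on day 3 (−6.00 ± 0.17; adjusted p = 1.6e-08), and its change ranked 8 from the most negative among 17338. Over the whole course it was 253-fold lower on day 5 than on day 1 (−7.95 ± 0.17; adjusted p = 3.9e-10).

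Sprr1b, the closest relative of Sprr1a and a marker of squamous change in cultured airway cells, was present on day 1 and almost gone by day 3. Its libraries had 208, 106 and 193 normalized counts on day 1. On day 3 they had 0, 1.34 and 0.987, which is 2 reads in all, and on day 5 none had a read. Day 1 stood clear of both later days. Where a day had 3 reads or fewer, as here, a fold compares the pooled reads of each day divided by its summed size factors. So measured, day 3 was 223-fold lower than day 1, with a 95% counting interval of 61.5 to 1845 (adjusted p = 7.9e-07). Day 5 was at least 151-fold lower than day 1, set against a floor of 3 reads over the libraries of a day (adjusted p = 1.1e-07). Between day 5 and day 3 both days were at or under that floor and the test was not passed (adjusted p = 0.15), although it was without day 3 replicate 1 (adjusted p = 0.040).

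Sprr2 proteins are a mouse cluster of near relatives, and its members in these cultures took different courses. Sprr2a1 was the most abundant of the 10 genes on every day in normalized counts. It had 23824, 25655 and 19239 on day 1, 31568, 43696 and 28801 on day 3, and 522, 1137 and 1332 on day 5. Every day 3 library was above every day 1 library, but the difference, a ratio of 1.51, did not pass the test (log2 change 0.59 ± 0.30, SE; adjusted p = 0.10). That comparison was passed without day 5 replicate 1 (adjusted p = 0.010), its lowest library of that day, and its sign turned with quantile normalization (−0.20; adjusted p = 0.60). On day 5 it was 34.8-fold lower than on day 3 (−5.20 ± 0.30; adjusted p = 3.9e-07) and 23.0-fold lower than on day 1 (−4.62 ± 0.30; adjusted p = 2.6e-07).

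The row of Sprr2a1 cannot be read apart from its copies. In the GENCODE M21 transcripts, 92.5% of its 100-base windows also occurred in Sprr2a2, Sprr2a3 or Sprr2b, so the counter may have split, dropped or misplaced reads among them. Summed, the 3 Sprr2a genes had 64817 ± 6086, 83756 ± 11971 and 2513 ± 943 normalized counts on days 1, 3 and 5, of which Sprr2a1 held 35.2%, 41.1% and 39.0%. The sum gave the same calls as the single row: 0.36 ± 0.26 on the log2 scale for day 3 against day 1 (adjusted p = 0.23), −5.13 ± 0.26 for day 5 against day 3 (adjusted p = 1.9e-07) and −4.77 ± 0.26 for day 5 against day 1 (adjusted p = 7.9e-08). Among the other members, 0.438% of the 100-base windows of Sprr2b and 1.09% of those of Sprr2e were shared, and 0 of the rest. Of 50-base windows, 13.7% were shared for Sprr2b, 10.2% for Sprr2e, 4.27% for Sprr2d and 0.694% for Ivl. The read length is not stated, so either size may be the closer guide.

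**Figure D2:**
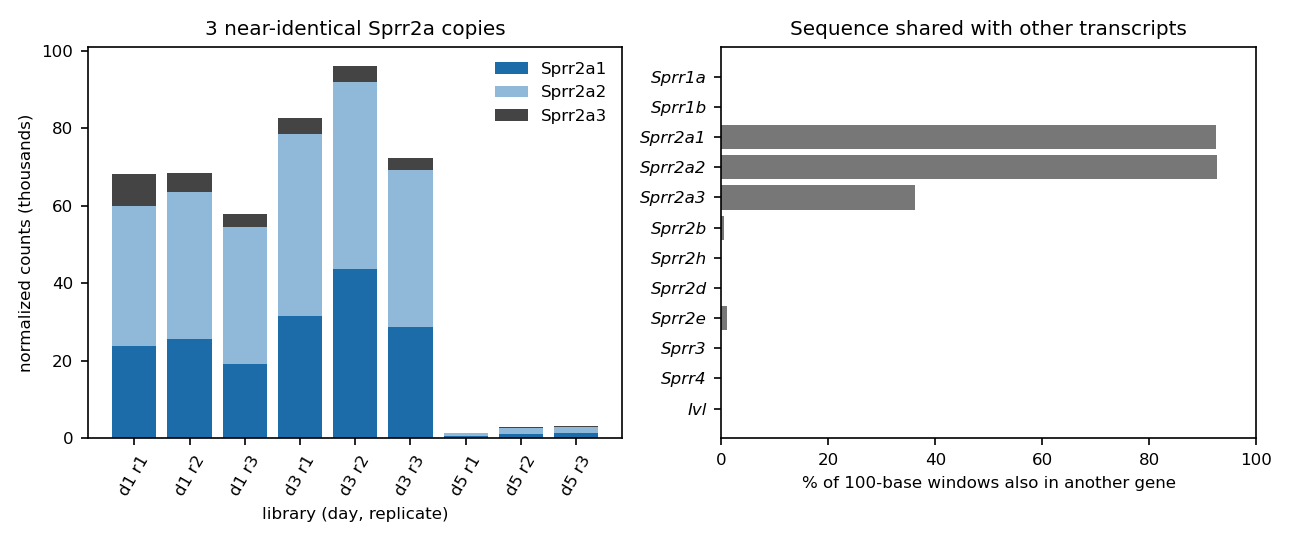
Left, normalized counts of Sprr2a1, Sprr2a2 and Sprr2a3 stacked for each of the 9 libraries, named by day (d) and replicate (r); the stacks of day 5 are short beside those of days 1 and 3, and Sprr2a1 and Sprr2a2 make up most of each. Right, the percent of each gene's 100-base transcript windows that also occur in another gene, which is 92.5% for Sprr2a1 and 92.8% for Sprr2a2.

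Sprr2b was present on days 1 and 3 and nearly absent on day 5. It had 432, 157 and 151 normalized counts on day 1, 689, 340 and 281 on day 3, and 0.991, 0 and 0 on day 5, the last of these 1 read in all. Replicate 1 was the highest library on each of the 3 days, and days 1 and 3 overlapped. The ratio of day 3 to day 1 was 1.77 and did not pass the test (log2 change 0.89 ± 0.48, SE; adjusted p = 0.12), although it did without day 1 replicate 1 (1.39; adjusted p = 0.019). Day 5 was 1106-fold lower than day 3, with a counting interval of 198 to 43731 (adjusted p = 3.9e-07), and 645-fold lower than day 1, with an interval of 115 to 25495 (adjusted p = 2.4e-07).

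Sprr2h, another Sprr2 gene, was scarce already on day 1 and had its fewest reads on day 5. Its libraries had 49.5, 20.8 and 39.4 normalized counts on day 1 and 1.25, 9.37 and 1.97 on day 3, which is 10 reads, and no library of day 5 had a read. The days did not overlap. Day 3 was 8.71-fold lower than day 1 (adjusted p = 5.6e-04). Day 5 was at least 3.38-fold lower than day 3 (adjusted p = 0.0092, and 0.12 with a pseudocount of 8) and at least 32.6-fold lower than day 1 (adjusted p = 1.3e-05).

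Sprr2d and Sprr2e were near the limit of detection and carry no test. Sprr2d had 6.78, 3.32 and 9.10 normalized counts on day 1, 12.5, 6.69 and 4.93 on day 3, and 6.94, 5.16 and 19.7 on day 5, so the 3 days overlapped. Sprr2e had 4.07, 5.81 and 5.46 on day 1, no read on day 3 and 1.23 in 1 library of day 5, a single read. In pooled reads Sprr2e was at least 4.34-fold lower on day 3 than on day 1, and 13.2-fold lower on day 5 than on day 1 with a counting interval of 2.13 to 545.

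Sprr3, known from oesophagus and oral lining, made most of its descent in the first step. It had 890, 581 and 924 normalized counts on day 1, 27.5, 21.4 and 27.6 on day 3, and 4.95, 7.74 and 6.15 on day 5. The 3 days were far apart beside the spread within each. Day 3 was 31.3-fold lower than day 1 (log2 change −4.89 ± 0.26, SE; adjusted p = 3.1e-07), and day 5 was 4.06-fold lower than day 3 (−1.87 ± 0.26; adjusted p = 1.3e-04) and 127-fold lower than day 1 (−6.77 ± 0.26; adjusted p = 1.0e-08). Sprr4, described in human skin, had 2 reads over the libraries of day 1 and none on days 3 and 5, and no fold is given.

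Ivl, the scaffold protein and the one member outside the Sprr family, held most of its level to day 3. It had 549, 727 and 605 normalized counts on day 1, 422, 359 and 558 on day 3, and 24.8, 18.1 and 25.8 on day 5. Days 1 and 3 overlapped, since day 3 replicate 3 lay above day 1 replicate 1, and day 5 stood apart. Day 3 was 1.41-fold lower than day 1 and close to the threshold (log2 change −0.50 ± 0.21, SE; adjusted p = 0.047). That call was lost without day 1 replicate 2 (adjusted p = 0.16) or 3 (0.088), without day 3 replicate 1 (0.11) or 2 (0.18), and with quantile normalization (0.11) or no filter on low counts (0.059). Day 5 was 19.5-fold lower than day 3 (−4.22 ± 0.21; adjusted p = 1.6e-07) and 27.4-fold lower than day 1 (−4.72 ± 0.21; adjusted p = 2.0e-08).

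The difference between the steps was itself tested, as the change from day 3 to day 5 minus the change from day 1 to day 3. Of the 7 tested genes 6 passed, 4 with a negative and 2 with a positive value, where 70.7% of all tested genes did, 33.9% negative and 36.8% positive. Sprr3 had a positive value (3.02 ± 0.45, SE, adjusted p = 1.9e-04). With 25.5 normalized counts left on day 3, even a fall to no read would have been smaller than its first step on this scale. Nothing is read from the sign of that pass. Sprr1b passed as well (adjusted p = 6.4e-05), but with 2 reads left on day 3 its second step could only be small, so nothing is read from that pass. Sprr1a (−4.04 ± 0.29, adjusted p = 5.0e-06), Ivl (−3.71 ± 0.36, adjusted p = 1.8e-05) and Sprr2a1 (−5.79 ± 0.53, adjusted p = 1.4e-05) had the larger fall in the second step. Sprr2b had it too (adjusted p = 1.4e-05), but it passed the filter through days 1 and 3 only. Sprr2b therefore had to be lower on day 5, and nothing is read from that pass. Sprr2h did not pass (1.07 ± 0.99, adjusted p = 0.35), but did without day 3 replicate 2, its highest library of that day (2.40, adjusted p = 0.028), and with a pseudocount of 8 (1.32, adjusted p = 0.036). With 10 reads on day 3 and none on day 5 its second step was limited in the same way, so nothing is read from those passes. Each gene differed across the 3 days by the limma F test, as did 91.4% of all tested genes.

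**Figure D3:**
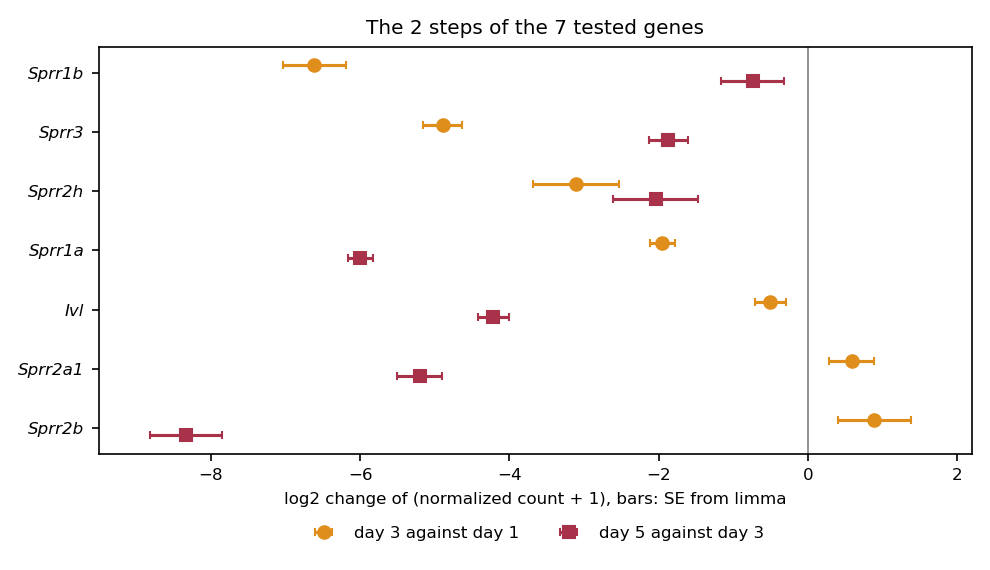
Change of the 7 tested genes in log2(normalized count + 1), day 3 against day 1 as circles and day 5 against day 3 as squares, with the limma SE as bars and 0 as a grey line. Sprr1a, Ivl, Sprr2a1 and Sprr2b have their larger fall in the second step (−6.00 for Sprr1a). Sprr2b passed the filter through days 1 and 3 only, so it had to be lower on day 5. Sprr3 changes by −4.89 in the first step and has 25.5 normalized counts left for the second, and Sprr1b has 2 reads left. Sprr1b, Sprr2b and Sprr2h reach 0 or 1 read on day 5, so their positions depend on the pseudocount.

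Across the 9 libraries, which fall on 3 days and share their size factors, log2 levels of Sprr1b and Sprr3 had a Pearson r of 0.976, those of Sprr2a1 and Sprr2b of 0.965 and those of Sprr1a and Ivl of 0.987. Between Sprr1b or Sprr3 on one side and Sprr1a, Sprr2a1, Sprr2b or Ivl on the other it ran from 0.481 (Sprr1b and Sprr2a1) to 0.857 (Sprr3 and Sprr1a). Among 11572 genes with a mean of at least 100 normalized counts, the closest to Sprr1a was Zmat3, a p53-induced zinc finger gene (r = 0.998 over 9 libraries). The closest to Sprr2a1 was Got2, a mitochondrial aminotransferase (0.998), and to Ivl it was Areg, the growth factor amphiregulin (0.997). For Sprr3 it was Aacs, acetoacetyl-CoA synthetase (0.997), for Sprr1b Lgalsl (0.990), for Sprr2b Arl5c (0.992) and for Sprr2h the vitamin D receptor gene Vdr (0.970). With so few days many genes share a course: between 49 genes for Sprr2h and 838 for Sprr3 had an r over 0.95.

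The other Sprr genes of the table, 8 in all with 6 tested, had 3 called lower on day 3 against day 1, 5 on day 5 against day 3 and 6 on day 5 against day 1, and 0 called higher, where 37.0%, 32.4% and 37.7% of all tested genes were called lower. Sprr2f, Sprr2g, Sprr2k and Sprr2j-ps passed the filter through libraries of days 1 and 3 only, so they had to be lower on day 5 and nothing is read from these counts. Sprr2a2 had 36448 ± 1350, 45237 ± 4222 and 1389 ± 473 normalized counts on days 1, 3 and 5, and Sprr2a3 5463 ± 2635, 3830 ± 645 and 127 ± 56.8. Sprr2k had 201 ± 13.3 on day 1, 46.4 ± 31.6 on day 3 and no read on day 5. The remaining rows did not exceed 71.4 in any library.

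The enzymes that join these proteins did not move as one. Tgm1, the transglutaminase of keratinocytes, fell at both steps, with 4132 ± 397, 1239 ± 78.4 and 144 ± 36.6 normalized counts on days 1, 3 and 5 (log2 change −1.73 ± 0.16, adjusted p = 5.5e-06 for day 3 against day 1; −3.12 ± 0.16, adjusted p = 2.1e-07 for day 5 against day 3). Tgm2, the tissue transglutaminase, rose at both, with 176 ± 60.7, 4886 ± 1243 and 13371 ± 883. Tgm5 had 151 ± 50.7, 92.6 ± 10.4 and 59.6 ± 14.7 and fell on day 5 against day 1 only (−1.29 ± 0.29; adjusted p = 0.0019), and Tgm3, with 9 reads on day 1, was not tested. Reads of Tgm2 may include an antisense neighbour, since 21.8% of its exonic bases are covered by a gene on the other strand and the use of strand in counting is not given.

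Of 38 other genes for cornified envelope proteins 14 were tested, and 12 fell and 0 rose on day 3 against day 1, with a median log2 change of −2.03 beside 0.00 for all tested genes. On day 5 against day 3, 5 fell and 5 rose (median −0.08, all genes 0.06), and on day 5 against day 1, 11 fell and 0 rose (median −2.07, all genes −0.06). In these comparisons 37.0%, 32.4% and 37.7% of all tested genes were called lower, and 36.1%, 34.8% and 36.7% higher. Tested genes that passed the filter on some days only had to be lower on the others, which adds to these counts. On the log2(normalized count + 1) scale, which favours the better-read genes, the largest falls by day 3 included those of Krtdap, a secreted keratinocyte protein, with 153 ± 53.2, 9.21 ± 1.47 and 0 normalized counts on days 1, 3 and 5, and of the envelope precursor sciellin (Scel), with 1576 ± 30.0, 180 ± 132 and 411 ± 148. Suprabasin (Sbsn) had 2019 ± 377, 322 ± 36.9 and 239 ± 56.3, and repetin (Rptn) 8.19 ± 5.73, 0 and 11.4 ± 1.53. Scel thus rose again by day 5 (adjusted p = 0.013). So did Rptn (adjusted p = 1.2e-04), but it had no read on day 3 and passed the filter through days 1 and 5 only. Rptn therefore had to be lower on day 3, and nothing is read from its rise. Cornulin (Crnn) took the course of Sprr2a1 and Ivl, with 228 ± 76.3, 276 ± 45.1 and 6.96 ± 4.18 (−5.27 ± 0.42, adjusted p = 3.1e-06 for day 5 against day 3), and cornifelin (Cnfn) that of Sprr1a, with 1701 ± 166, 419 ± 92.5 and 12.5 ± 8.44.

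Of 9 keratins of suprabasal, hillock and squamous cells 4 rose and 4 fell in the first step, near the 36.1% and 37.0% of all tested genes. In the second step 1 rose and 7 fell, beside 34.8% and 32.4% of all tested genes. On day 5 against day 1, 2 rose and 6 fell, beside 36.7% and 37.7%. Krt6b, a keratin of wounded and squamous epithelium, had 6993 ± 1140, 177 ± 96.7 and 75.9 ± 13.2 normalized counts on days 1, 3 and 5 and thus fell mostly in the first step (−5.47 ± 0.37; adjusted p = 1.0e-06), and its partner Krt16 had 2544 ± 665, 149 ± 34.0 and 61.6 ± 20.4. Krt6a had 33601 ± 2233, 5127 ± 679 and 573 ± 35.8. Its reads may include an antisense neighbour, since a gene on the other strand covers 24.8% of its exonic bases. Krt13, the keratin of hillock cells, rose on day 3 against day 1 (1.72 ± 0.28; adjusted p = 2.5e-04) and fell on day 5 against day 3 (−3.20 ± 0.28; adjusted p = 5.8e-06), with 19014 ± 5611, 60955 ± 6808 and 6927 ± 2654. Krt17 had 36493 ± 3259, 15265 ± 1410 and 3555 ± 809. Krt1, an epidermal keratin, rose but stayed low, with 1.61 ± 0.235, 9.99 ± 1.64 and 42.5 ± 13.7. It passed the filter through libraries of days 3 and 5 only, so it had to be lower on day 1.

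Among 20 regulators of squamous genes all were tested, and 9 rose and 9 fell on day 3 against day 1. On day 5 against day 3, 9 rose and 6 fell, and on day 5 against day 1, 9 rose and 9 fell. Of all tested genes 36.1%, 34.8% and 36.7% were called higher in these comparisons, and 37.0%, 32.4% and 37.7% lower. The AP-1 subunit gene Fosl1 fell, with 298 ± 43.9, 21.4 ± 22.5 and 2.57 ± 1.34 normalized counts on days 1, 3 and 5. Fosl1 passed the filter through libraries of days 1 and 3 only. It therefore had to be lower on day 5, and nothing is read from its fall to that day. The AP-1 subunit gene Fos rose, with 944 ± 279, 7371 ± 2713 and 9529 ± 1362. Jund, also an AP-1 subunit gene, peaked on day 3 with 8904 ± 1444, against 1566 ± 68.2 on day 1 and 2513 ± 595 on day 5. Jun and Junb, the other AP-1 subunit genes listed, were called higher at both steps. On days 1, 3 and 5 Jun had 1477 ± 171, 3332 ± 1330 and 9161 ± 1138, and Junb 2961 ± 246, 5655 ± 820 and 13926 ± 943. More than 50% of the exonic bases of Fosl1 (57.2%) and Jund (52.6%) lie under a gene on the other strand, so both values are uncertain. Elf3, an ETS factor of epithelia, also stood highest on day 3, with 3026 ± 637, 13037 ± 325 and 4112 ± 550 on days 1, 3 and 5. Grhl3, a factor of barrier formation, fell at both steps, with 1018 ± 198, 200 ± 87.0 and 79.7 ± 8.6. The receptor gene Notch1 fell and then rose, with 3772 ± 506, 428 ± 147 and 1028 ± 614 (adjusted p = 2.2e-05 and 0.018). Pou2f3, known also from tuft cells, had 1.66 ± 1.05, 6.88 ± 2.52 and 49.99 ± 3.92 and was called higher at both steps. It passed the filter through day 5 alone, so it had to be higher there and nothing is read from its rise to that day.

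**Figure D4:**
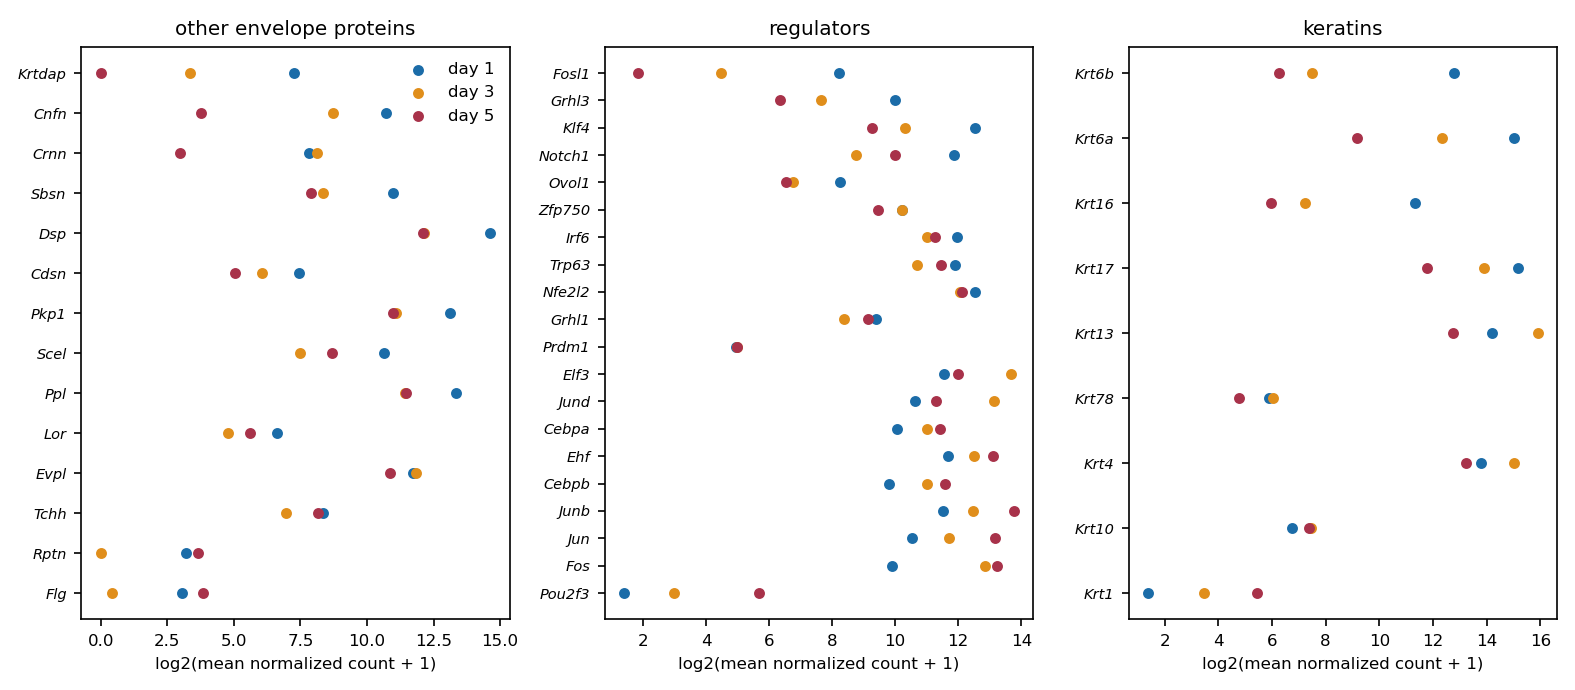
Mean level on a log2(normalized count + 1) axis on days 1, 3 and 5 of the tested genes of 3 groups, the other cornified envelope proteins, the regulators and the keratins, each ordered from the largest fall to the largest rise of day 5 against day 1; points that coincide hide each other. Krtdap, Cnfn and Crnn end far left of where they began, as Fosl1 and Krt6b do, while Pou2f3, Fos and Krt1 end to the right.

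Along chromosome 3 the fall was not shared by every neighbour. The 20 protein-coding genes on one side of the Sprr and Ivl stretch, largely S100 genes, included 13 tested genes. Of these 6 rose and 5 fell on day 3 against day 1, beside 36.1% and 37.0% of all tested genes. On day 5 against day 3, 3 rose and 10 fell, beside 34.8% and 32.4%, and on day 5 against day 1, 2 rose and 10 fell, beside 36.7% and 37.7%. Some of these genes, such as Pglyrp4, S100a4 and S100a9, passed the filter through libraries of days 1 and 3 only. Those had to be lower on day 5, which adds to the counts that fell, so nothing is read from them. None of the 20 on the other side, largely late cornified envelope (Lce) genes, had enough reads to be tested. The highest of these was Lce3c, with 6.62 ± 1.49 normalized counts on day 1.

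**Figure D5:**
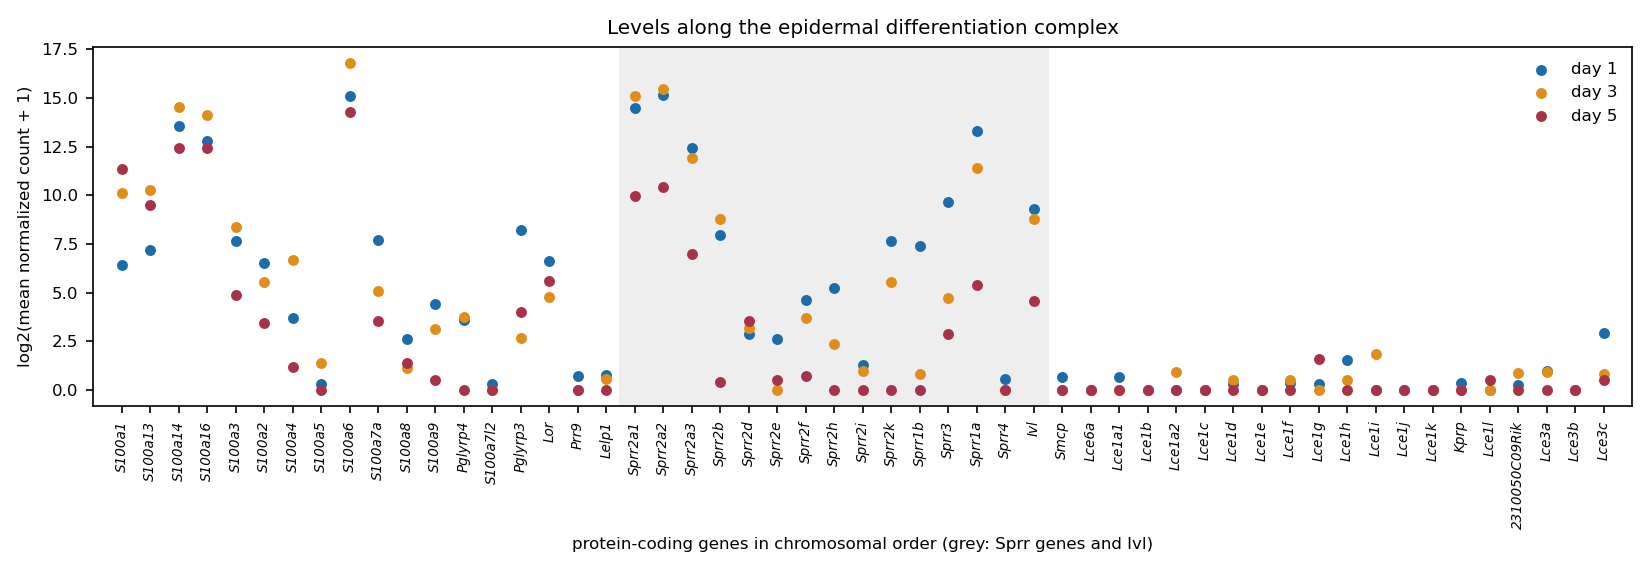
Mean level on a log2(normalized count + 1) axis on days 1, 3 and 5 for protein-coding genes in chromosomal order, with the Sprr genes and Ivl shaded and their neighbours on either side. Day 5 points lie lowest for most shaded genes, Sprr2d being above its earlier days, while S100a1 on the left is highest on day 5 and the Lce genes on the right lie near 0.

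Transcript length moved with the day in these libraries. The median log2 change of the tenth of genes with the shortest transcripts was 0.63 for day 3 against day 1 and −1.04 for day 5 against day 3, and that of the tenth with the longest was −0.89 and 0.38. Most members are short, with 806 exonic bases for Sprr1a, but Ivl has 1922 and Sprr2a1 3003. Sprr2a1 thus falls in the tenth of genes with 2848 to 3386 bases, where these medians were 0.04 and 0.10. With the trend over length and GC content removed from each library, the counts that fell were again 5, 6 and 7 of 7 for the 3 comparisons, and Sprr2a1 was called higher on day 3 against day 1 (0.92 ± 0.34, SE; adjusted p = 0.030).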

How the data were processed

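Per the labels' protocols, total RNA of the 9 samples went into a VAHTS universal RNA-seq kit. The submitters' processing notes name HISAT2 2.1.0, the build GRCm39 and DESeq2 1.36.0; which program counted reads, with which annotation and whether by strand, is not given in the sources used here. In the 1 table that the authors deposited, values are log2 normalized counts with no pseudocount, and a spreadsheet error text stands where a gene had no read (297330 cells, read as 0). Of 57107 lines 359 were repeats with the same values and were dropped, which left 56748 genes. Returned to the linear scale, every value was a whole multiple of 1 read within 0.01 of a read, so reads per gene were read back for the totals, the floors and counting intervals, which cover counting error only; no count test was run.

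limma 3.58.1 in R 4.3.3 (lmFit, eBayes with a mean-variance trend, two-sided) was fitted to log2(normalized count + 1) with 1 mean a day over all 9 libraries and 6 residual degrees of freedom, after testing on simulated data. Each adjusted p in the text comes from it unless another setting is named. Groups and replicate numbers came from sample titles. Transcript lengths, GC content, shared windows and exon overlaps are from GENCODE M21 on GRCm38, used by gene identifier; 98.3% of tested genes had a length. Promoters are RefSeq's on GRCm38.p6. No protein sequence was used here. Alternatives were another pseudocount, no filter, quantile and equal-total scaling, limma-voom, the log2 values as deposited for genes with a read in every library, length and GC correction, the replicate block, 2 days at a time, each library left out, and the Sprr2a copies summed (added after seeing the data).

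The members and gene lists were chosen with earlier results of these data known. All 10 members are named. From each list, the text names the 4 genes past the threshold with the largest absolute log2 change in a comparison. Genes with no read on a day among those tested are named too. Jun and Junb are added so that all AP-1 subunit genes listed appear. For likeness, the gene with the highest r is named.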

Additional observations from a re-analysis of the deposited data

How the results depend on the processing

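Of 517 values of the log2 changes of the tested members under the alternatives, 498 kept their direction and side of the threshold, 10 passed it newly, 8 no longer passed it and 1 turned. The one that turned was Sprr2a1 on day 3 against day 1 with quantile normalization (−0.20). The number of members that rose on day 3 against day 1, 0 as reported, was 1 under the replicate block (Sprr2b, 0.89, adjusted p = 0.010), 1 after removing the trend over length and GC, 1 after that together with the replicate block, and 1 with only the 2 days in the fit (Sprr2a1, adjusted p = 0.030); leaving out a library gave 0 to 1. The log2 values as deposited, for genes with a read in every library, leave 4 members to test, so 3 fell on day 3 against day 1, 4 fell on day 5 against day 1 and 4 differed across the days, against 5, 7 and 7 as reported. Whether the replicate numbers pair the samples is not stated, and the main fit assumed no pairing. Deviations from the day means of same-numbered libraries correlated at −0.31 to 0.14, over 0.1 in 2 of 9 pairs, and those of other numbers at −0.15 to 0.36. With so few libraries a day this check cannot exclude a pairing. The replicate block also lost Ivl on day 3 against day 1 (adjusted p = 0.062). For Sprr1b, quantile normalization passed day 5 against day 3 (−1.10; adjusted p = 0.039). The causes were not tested. For Sprr2d, Sprr2e and Sprr4, with a few reads a library, changes were not tested at this depth.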
